A study of Rattus norvegicus with 16 samples.

Results

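Alb, Serpina1, Lbp, Hp, Orm1, Cp, C3, Cfb and Serping1 encode proteins of blood plasma and of the complement system, and were examined here in rat tendon. They were taken by gene name from a count table of 23285 genes, so that these 9 genes are 9 of 23285. Alb, Serpina1 and Lbp are members because they differed between tendons in these libraries, and their values are given below as a description without a test. The other 6 members were added as plasma and complement genes and could be tested, apart from Cfb, whose counts were too low.

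Total RNA was sequenced from the Achilles and patellar tendons of the hindlimb, the supraspinatus tendon of the shoulder and the flexor tendons of the forepaw, with 4 libraries for each tendon and 16 in all. Every library came from the Sprague Dawley strain, an outbred laboratory rat, and the labels give no treatment, age or sex. The study compared mRNA between each pair of these 4 tendons. The labels name the libraries Rat_1 to Rat_4 within each tendon. They do not say whether a number stands for an animal, or for the same animal in all 4 tendons. The p-values thus measure the spread between libraries, which may in part be technical.

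Most plasma proteins are made by hepatocytes, and several of them are acute phase proteins, whose synthesis in liver rises during inflammation under the control of interleukin-6, STAT3, C/EBP factors and NF-kB. Complement is a cascade of plasma proteases and binding proteins that converges on the cleavage of C3, with factor B supplying the protease of the alternative pathway and C1 inhibitor holding back the first step of the classical pathway. Cells outside the liver, among them fibroblasts, macrophages and adipocytes, also transcribe some of these genes.

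Depth was between 63397591 and 102491699 counts per library. Levels are given as CPM, the count relative to the scaled total of its library, and a floor of 3 counts lay at 0.0266 to 0.0485 CPM. All CPM values were scaled by the trimmed mean of M-values (TMM), which evens out libraries dominated by a few transcripts. The factors were between 0.7312 and 0.8763 in the supraspinatus libraries and above 1 in the other tendons. Scaling by library totals alone shifted the log2 fold change of the median gene by 0.41 for Achilles over supraspinatus, by 0.34 for flexor and by 0.42 for patellar over supraspinatus, and by -0.24 for forelimb over hindlimb. All 10 tendon fibroblast markers were measured, among them Col1a1, Tnmd and Scx, and their summed level was between 29900 and 134000 CPM in every library. Summed skeletal muscle markers reached 119000 to 224000 CPM in the supraspinatus libraries, 14600 to 55000 CPM in flexor and 322 to 8910 CPM in Achilles. In the patellar tendon they ran from 285 to 29500 CPM, so that its libraries differed widely from each other. In bulk RNA, fewer cells of a type and less RNA per cell cannot be told apart.

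Among the 6 members that did not choose the set, 5 had enough counts to be tested, and 4 of them, Hp, Orm1, Cp and C3, differed among the 4 tendons at an adjusted p under 0.05. Of all 16948 genes tested, 75.6% passed the same test, so that a count of 4 in 5 is near the background. The members fell into unlike patterns. Alb, Hp and Cp were higher in both hindlimb tendons than in both forelimb tendons, Serpina1 and Lbp had their highest mean in the Achilles and their lowest in the patellar tendon (where Lbp overlapped supraspinatus), and C3 was highest in the flexor tendons. Orm1 was lowest in the supraspinatus tendon, and Serping1 did not pass the test among the tendons.

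**Figure D1:**
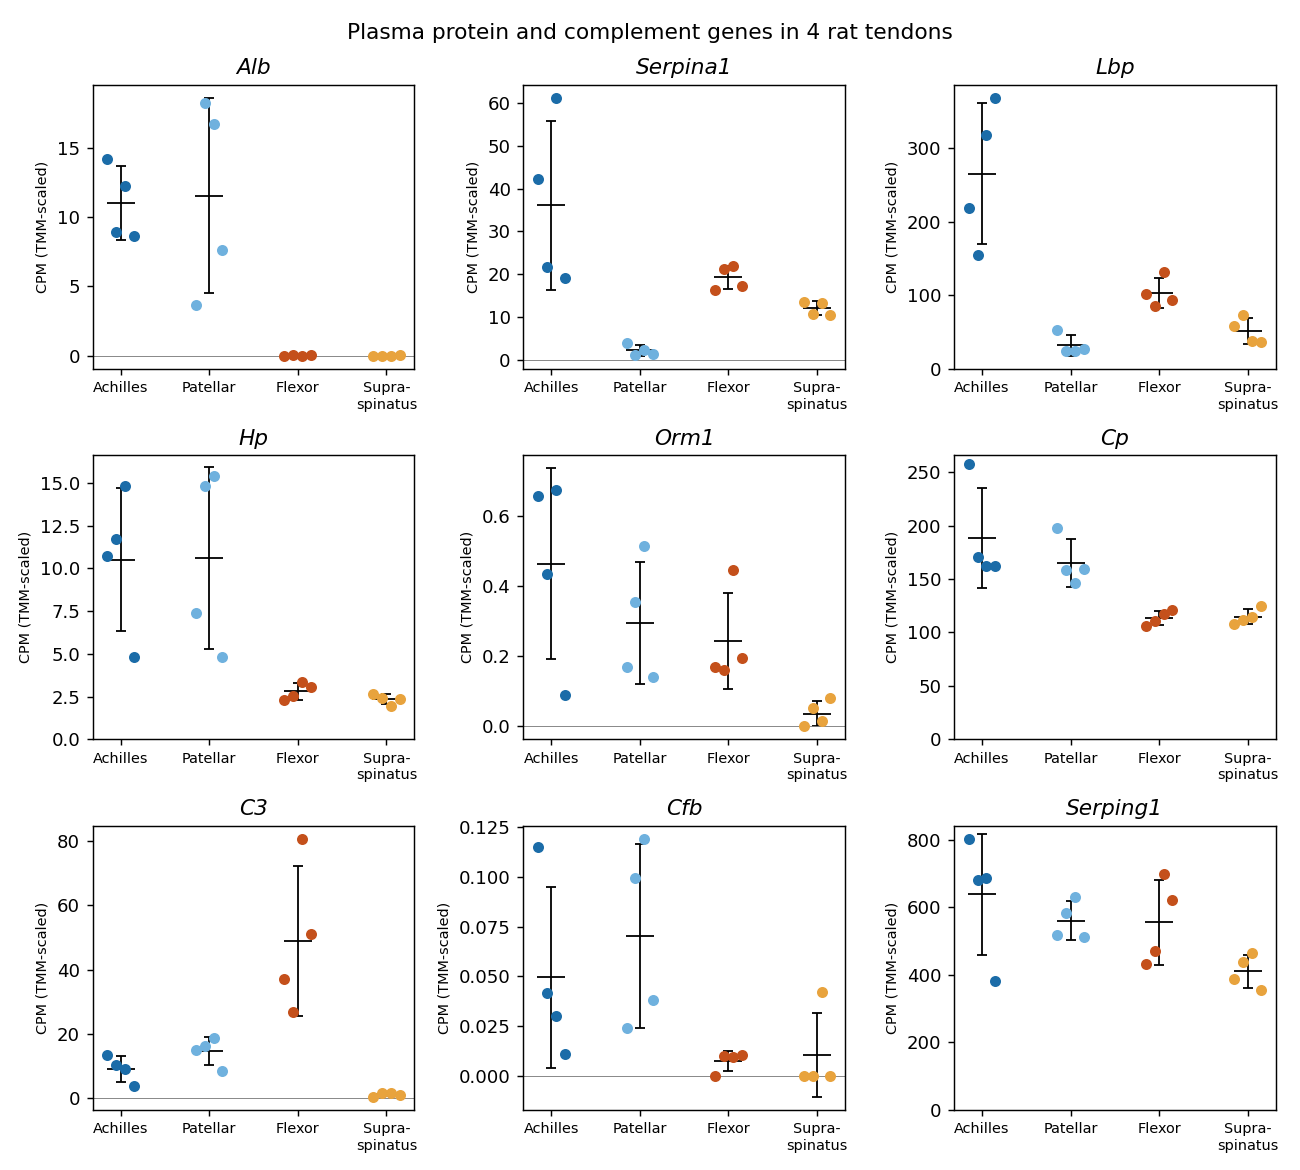
Level of each of the 9 genes in CPM (TMM-scaled, linear axes that differ between panels). Each point is 1 of 4 libraries of a tendon, the long bar is the mean and the whiskers are 1 SD. Alb lies near 0 in every forelimb library, C3 is highest in the flexor libraries, Serpina1 is lowest in the patellar libraries, and Lbp is highest in the Achilles libraries.

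The sequence upstream of the transcription start is shown for 4 members with unlike patterns, Alb and Cp with more transcript in the hindlimb, C3 with the most in flexor and Serpina1 with the least in patellar. RefSeq's promoter table for GRCr8 matched 5 of the 9 members, these and Orm1. Each run holds the 250 bases before the start, 5′ to 3′ on the gene's strand. Capitals mark matches on either strand to an HNF1 half-site (GTTAAT), a C/EBP motif (TTGCNNAA), an NF-kB motif (GGG, any 5 bases, CC), a STAT motif (TTCNNNGAA) or a TATA box (TATAAA). HNF1 is a hepatocyte factor, and the others bind acute phase or general promoters.
Alb, chr14:17906980-17907229, minus strand: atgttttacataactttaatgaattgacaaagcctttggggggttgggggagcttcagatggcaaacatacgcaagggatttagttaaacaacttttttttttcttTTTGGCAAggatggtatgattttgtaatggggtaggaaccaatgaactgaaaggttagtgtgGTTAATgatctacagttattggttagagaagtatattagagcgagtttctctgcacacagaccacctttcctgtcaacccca
Cp, chr2:104368420-104368669, plus strand: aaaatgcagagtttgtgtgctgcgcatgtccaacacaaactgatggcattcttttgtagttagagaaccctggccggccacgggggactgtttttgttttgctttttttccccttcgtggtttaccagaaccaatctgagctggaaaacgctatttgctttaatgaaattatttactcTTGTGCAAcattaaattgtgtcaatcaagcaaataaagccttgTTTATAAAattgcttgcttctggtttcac
C3, chr9:2201340-2201589, minus strand: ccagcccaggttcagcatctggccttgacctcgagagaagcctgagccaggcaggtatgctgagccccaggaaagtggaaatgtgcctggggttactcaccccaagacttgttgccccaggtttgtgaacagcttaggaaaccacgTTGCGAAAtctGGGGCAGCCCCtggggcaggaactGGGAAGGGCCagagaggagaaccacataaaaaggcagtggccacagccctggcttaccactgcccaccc
Serpina1, chr6:128653126-128653375, minus strand: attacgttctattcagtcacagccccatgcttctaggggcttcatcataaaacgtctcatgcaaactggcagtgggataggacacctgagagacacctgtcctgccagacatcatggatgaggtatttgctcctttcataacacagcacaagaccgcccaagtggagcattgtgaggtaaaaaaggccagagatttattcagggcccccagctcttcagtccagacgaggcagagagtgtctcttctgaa

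The Alb window held an HNF1 half-site 82 bases before the start, a motif found in 6.45% of all 33469 promoter windows of this length. Alb, Cp and C3 each held a C/EBP match, at 144, 72 and 104 bases before the start, where 9.22% of all windows hold one. In C3 the NF-kB motif matched 93 and 92 bases before the start, on both strands and overlapping, and again at 69, but 42.3% of all windows hold this motif. The Cp window held TATAAA on both strands at 29 and 27 bases before the start, overlapping (12.9% of all windows). No window shown held the STAT motif (7.67% of all windows), and the Serpina1 window held none of the 5. A match is a run of letters and not evidence of binding, and a window without one says nothing of the factor.

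Alb (ENSRNOG00000002911) encodes albumin, the main carrier protein of plasma, and is one of the 3 genes that chose the set. In the Achilles tendon its libraries held 14.2, 8.94, 12.2 and 8.63 CPM, from 1598, 863, 1211 and 776 counts. The patellar libraries held 3.65, 18.2, 16.7 and 7.62 CPM, from 300, 1284, 1263 and 599 counts. Both hindlimb tendons thus carried Alb in every library, with wide overlap and means of 11 ± 2.66 and 11.5 ± 7.03 CPM (SD, n = 4 each). The flexor libraries held 0, 6, 0 and 4 counts, and the supraspinatus libraries 1, 1, 0 and 2 counts, which is close to the limit of what these depths can show. Summed over libraries and scaled for depth, Alb counts were 452 times as many in Achilles as in flexor (95% exact interval 246 to 943) and 824 times as many in patellar as in supraspinatus (321 to 3020). The Achilles to patellar ratio was 0.995 (0.951 to 1.04). Since 6 of the 10 flexor counts lay in flexor 2, the Achilles to flexor ratio without that library was 853 (333 to 3130), and the Achilles to supraspinatus ratio went from 819 (320 to 3010) to 1290 (358 to 10700) without supraspinatus 4. The patellar to supraspinatus ratio became 1300 (360 to 10700) without that library. These intervals cover counting error only, not the spread between libraries, and the ratios are a description of a gene that was picked for this difference.

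The relatives of Alb beside it in the genome were near 0 throughout. In RefSeq's gene order on the GRCr8 assembly, Afp and Afm, which encode the albumin relatives alpha-fetoprotein and afamin, lie next to Alb. Afp averaged 0.0389 CPM in Achilles and 0.044 CPM in patellar and was at 0 in all flexor and supraspinatus libraries. Afm averaged 0.0408 CPM in Achilles, 0.0466 CPM in patellar and 0 in flexor. On the other side, Ankrd17, an ankyrin repeat gene, was present in all tendons at means of 61.7 to 103 CPM. The neighbours were chosen by position after the level of Alb was known.

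Of 18 listed hepatocyte markers 16 were measured and 10 tested. Between the limbs 4 were higher and 5 lower in the forelimb, with a median log2 difference of -0.75 (0.02 over all genes), and 58.8% of all genes differed there. Among those lower in the forelimb, Cyp2e1, a drug-metabolising enzyme chosen here after its values were seen, averaged 0.883 and 1.05 CPM in Achilles and patellar against 0.263 and 0.0458 CPM in flexor and supraspinatus (adjusted p = 2.59e-05). The summed level of the 16 was 21 to 28.3 CPM in Achilles, 23.1 to 25.9 CPM in patellar, 28.9 to 49 CPM in flexor and 16.7 to 19.7 CPM in supraspinatus. The sum was highest in the flexor libraries. Hnf4a, the transcription factor that defines hepatocytes, was at 0 in all Achilles and supraspinatus libraries, at no more than 1 count in flexor and at up to 19 counts in a patellar library. Fgb, a fibrinogen chain, was at 0 in all patellar and supraspinatus libraries, Cps1 at 0 in patellar, and Tat at 0 in flexor but at 0.153 CPM in Achilles. Most of the sum came from Ass1, an enzyme of arginine synthesis made in many cell types, at 30.7 ± 8.52 CPM in flexor and 16.2 ± 4.98 CPM in Achilles (adjusted p among the 4 tendons = 0.000167). Arg1, the arginase of the urea cycle, was highest in patellar at 8.27 ± 0.707 CPM and lowest in supraspinatus at 1.2 ± 0.433 CPM (adjusted p = 5.11e-05). G6pc, the glucose-releasing phosphatase of liver, stood at 0.198 to 0.38 CPM and did not pass (adjusted p = 0.237).

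Some marker lists of other cell types were higher in the hindlimb tendons, as Alb was, and others were not. Over the 16 libraries, the Pearson r of log2 levels with Alb was 0.94 to 0.96 for adipocyte, neutrophil and erythroid sums. It was 0.8 for endothelial and 0.67 for tendon fibroblast sums. The r was 0.08 for macrophage and monocyte, -0.5 for synovial lining and -0.51 for fibroblast sums. It was -0.73 for keratinocyte and skin gland, -0.84 for skeletal muscle and -0.16 for hepatocyte sums, a description only. Alb was picked for differing between tendons, so these values rest in part on the order of the tendons. For deviations from tendon means the r was 0.48 for adipocyte, 0.55 for neutrophil and 0.41 for erythroid sums. It was 0.03 for endothelial, -0.07 for tendon fibroblast and -0.56 for skeletal muscle sums. The others ran from -0.36 (synovial lining) to 0.15 (fibroblast). Adipocyte markers (15 of 16 measured) summed to 4320 to 16000 CPM in Achilles and 5830 to 15900 CPM in patellar, against 1260 to 2310 CPM in flexor and 976 to 2230 CPM in supraspinatus. Pnpla2 alone of the list was at 0 in a tendon, in flexor. Of the 14 adipocyte markers tested, 12 were lower and 1 higher in the forelimb tendons (28.5% and 30.3% of all genes). Their median log2 difference was -3.31, against 0.02 over all genes. Neutrophil markers (13 of 13 measured) summed to 20.4 to 47.8 CPM in Achilles and 50.9 to 93.2 CPM in patellar, and to at most 4.43 CPM in the forelimb tendons, where Elane, Prtn3 and Mmp8 were at 0 in supraspinatus. Erythroid markers (6 of 7 measured) summed to 15.8 to 30.1 CPM in the hindlimb and 1.84 to 7.22 CPM in the forelimb tendons, with none at 0 in a tendon. Endothelial markers (8 of 10 measured, none at 0) summed to 937 to 1920 CPM in the hindlimb and 310 to 992 CPM in the forelimb tendons. The part of these cells in the Alb, Hp and Cp values was not tested.

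Serpina1 (ENSRNOG00000032669) encodes alpha-1-antitrypsin, the main plasma inhibitor of neutrophil elastase, and is another of the genes that chose the set. Its Achilles libraries held 42.2, 21.7, 61.2 and 19.2 CPM and its flexor libraries 16.4, 21.3, 21.9 and 17.3 CPM. The supraspinatus libraries held 13.5, 10.7, 13.3 and 10.5 CPM, and the patellar libraries 4.01, 1.21, 2.22 and 1.35 CPM. All 4 patellar libraries lay below every library of the other tendons, all supraspinatus libraries lay below all Achilles and flexor libraries, and Achilles overlapped flexor. The log2 fold change of Achilles over patellar was 4.03, that of flexor over patellar 3.12, and that of patellar over supraspinatus -2.45. Achilles and patellar, which were close in mean for Alb, were thus the highest and the lowest tendon for Serpina1.

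The gene whose pattern over the 16 libraries was most like that of Serpina1 was Prg4, with a Pearson r of log2 CPM of 0.957 among 12296 genes searched. Prg4 encodes lubricin, the lubricant glycoprotein of joint and tendon surfaces. Its libraries held 995, 1280, 2030 and 795 CPM in Achilles and 162, 93.1, 93.1 and 64.5 CPM in patellar. Dlx3, a homeobox factor, and Hsd17b7, an enzyme of sterol synthesis, followed at 0.944 and 0.929. The 16 points share their libraries and fall into 4 tendons. These values thus rest in part on the order of the tendons and are a description. Markers of the synovial lining, the cell layer that coats joints and tendon sheaths (6 of 6 measured, none at 0), summed to 930 to 2370 CPM in Achilles, 1330 to 1910 CPM in flexor, 984 to 1290 CPM in supraspinatus and 188 to 359 CPM in patellar. Prg4 is itself on that list. With this sum, Serpina1 had an r of 0.96 over the 16 libraries and 0.85 for deviations from tendon means. For Lbp the values were 0.72 and 0.32. The part of synovial cells in the Serpina1 and Lbp values was not tested.

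**Figure D2:**
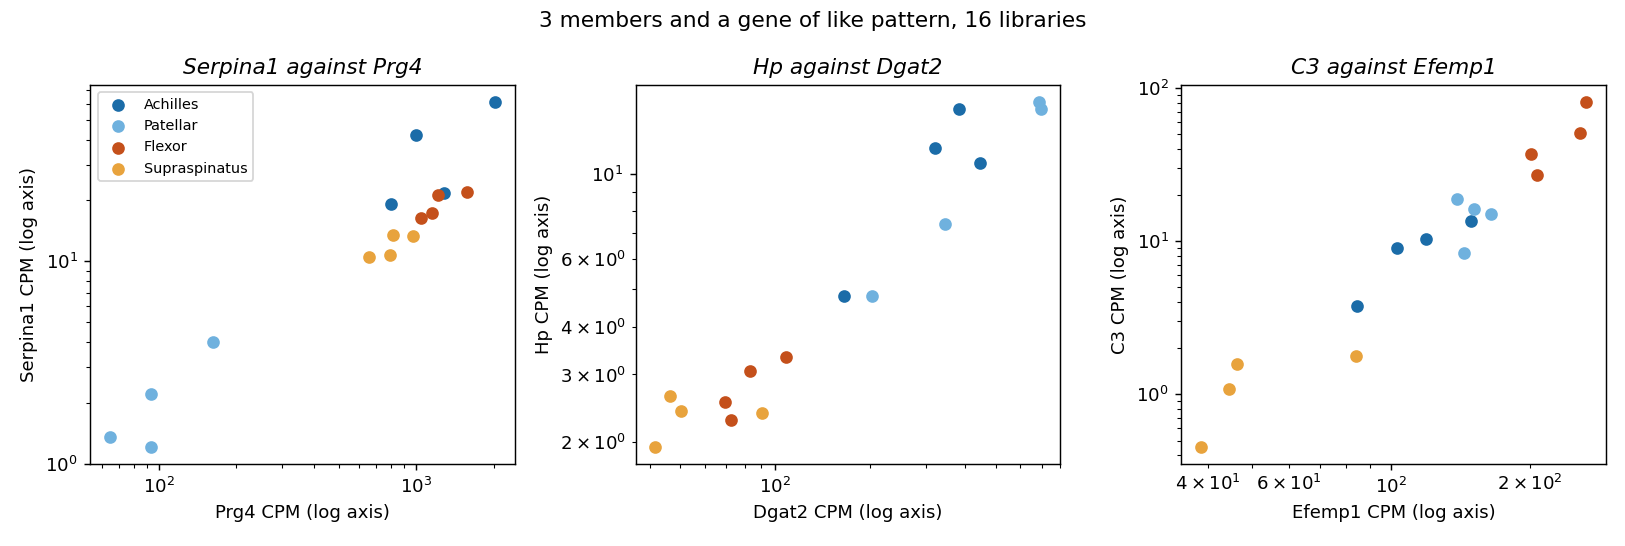
CPM of Serpina1, Hp and C3 against that of 1 gene each of like pattern (Prg4, Dgat2 and Efemp1), on log axes, with 1 point per library coloured by tendon. The patellar libraries lie apart at the low end for Serpina1 and Prg4, and the flexor libraries lie at the high end for C3 and Efemp1.

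Lbp (ENSRNOG00000014532), the third gene behind the choice of the set, encodes the lipopolysaccharide-binding protein that passes bacterial lipopolysaccharide to the receptor CD14. It held 219, 155, 318 and 368 CPM in the Achilles libraries and 102, 85.6, 131 and 92.7 CPM in the flexor libraries. In the supraspinatus libraries it held 58, 72.4, 37.9 and 36.2 CPM, and in the patellar libraries 53.2, 23.5, 24.2 and 26.2 CPM. Every Achilles library lay above every library of the other tendons and every flexor library above all supraspinatus and patellar libraries, while supraspinatus and patellar overlapped through patellar library 1. The log2 fold change was 3.06 for Achilles over patellar, 1.37 for Achilles over flexor and 1.01 for flexor over supraspinatus. Without patellar library 1, Achilles over patellar became 3.43 and patellar over supraspinatus moved from -0.69 to -1.08. The genes most like Lbp were Hhipl2 at 0.898, Cldn11 at 0.894 and Rnft2 at 0.884.

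Cd14, which takes lipopolysaccharide from Lbp on the cell surface, had another order of tendons. It averaged 112 ± 19.3 CPM in Achilles, 219 ± 34.2 CPM in flexor, 71.7 ± 11.8 CPM in patellar and 140 ± 18.8 CPM in supraspinatus (adjusted p among the 4 tendons = 5.54e-06). Achilles was lower than flexor (log2 fold change -0.96 ± 0.16, SE, adjusted p = 2e-04), where Lbp was higher. Bpi, which encodes the related bactericidal protein and lies next to Lbp, averaged at most 0.00951 CPM.

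Hp, Orm1 and Cp encode binding proteins of the acute phase. Hp (ENSRNOG00000014964) encodes haptoglobin, which captures free haemoglobin. The Achilles libraries held 10.7, 11.7, 14.8 and 4.82 CPM and the patellar libraries 7.41, 14.8, 15.4 and 4.82 CPM. The flexor libraries held 2.28, 2.54, 3.34 and 3.06 CPM and the supraspinatus libraries 2.64, 2.41, 1.94 and 2.38 CPM. Each hindlimb library was above each forelimb library, and the lowest hindlimb values were those of Achilles 4 and patellar 4. Such a full separation of the limbs was seen for Hp and Cp among the 6 members that did not choose the set, and for 9.3% of all genes tested in the direction of the hindlimb.

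In the tests of pairs, Hp was higher in Achilles than in flexor (log2 fold change 1.90 ± 0.36, SE, adjusted p = 0.000649) and higher than in supraspinatus (2.17 ± 0.37, adjusted p = 0.000225). It was lower in flexor than in patellar by -1.92 ± 0.36 (adjusted p = 0.000538) and higher in patellar than in supraspinatus by 2.18 ± 0.37 (adjusted p = 0.000187). Neither pair within a limb passed: the difference was -0.01 ± 0.35 for Achilles over patellar (adjusted p = 0.99) and 0.26 ± 0.36 for flexor over supraspinatus (adjusted p = 0.575). Forelimb against hindlimb gave -2.04 ± 0.26 (adjusted p = 1.07e-05). At that threshold 58.8% of all genes differed between the limbs, 30.3% higher and 28.5% lower in the forelimb, and 3 of the 5 tested members did, Hp, Orm1 and Cp, all lower in the forelimb.

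The genes most like Hp over the libraries were Slc25a10, a mitochondrial dicarboxylate carrier, Sgpl1, which degrades sphingosine phosphate, and Dgat2, which makes triglyceride, with r of 0.967, 0.966 and 0.964. Dgat2 averaged 330 CPM in Achilles, 483 CPM in patellar, 83.2 CPM in flexor and 57.2 CPM in supraspinatus. Achilles 4 and patellar 4, the hindlimb libraries with the least Hp, also held the smallest adipocyte sums of their tendons, 4320 and 5830 CPM. The same libraries held the smallest neutrophil sums, 20.4 and 50.9 CPM, and the largest tendon fibroblast sums, 134000 and 109000 CPM. The part of any of these cells in the Hp values was not tested. Cd163, the macrophage receptor for haptoglobin bound to haemoglobin, averaged 57.6 ± 20.4 CPM in Achilles, 48.7 ± 13.6 CPM in flexor, 63 ± 29.8 CPM in patellar and 34.6 ± 15.2 CPM in supraspinatus. It did not pass the test among the tendons (adjusted p = 0.214).

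Orm1 (ENSRNOG00000007886) encodes alpha-1-acid glycoprotein, a plasma carrier of basic and lipophilic compounds, and was near the limit of detection. The Achilles libraries held 74, 42, 67 and 8 counts, the flexor libraries 18, 16, 46 and 19, the patellar libraries 14, 25, 39 and 11, and the supraspinatus libraries 0, 4, 1 and 5. Every supraspinatus library lay below every library of the other tendons in CPM, and the other 3 tendons overlapped. The share of all genes with supraspinatus below the other 3 was not counted. For patellar above supraspinatus alone it was 23.2%. Summed counts scaled for depth were 14.1 times as many in Achilles as in supraspinatus (95% exact interval 7.49 to 29.8), 7.18 times as many in flexor (3.74 to 15.4) and 8.51 times as many in patellar (4.42 to 18.4). The intervals cover counting error only, not the spread between libraries. The 3 pairs passed the test across libraries, at adjusted p = 0.00174, 0.012 and 0.00597. The pairs without supraspinatus did not, at adjusted p of 0.268, 0.593 and 0.762. Forelimb against hindlimb passed for Orm1 (adjusted p = 0.00492), although the flexor libraries overlapped with both hindlimb tendons. Plau, the urokinase plasminogen activator, and Polr3g, an RNA polymerase subunit, were most like Orm1 among the genes reported here, with r of 0.908 and 0.906.

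Cp (ENSRNOG00000011913) encodes ceruloplasmin, the copper-carrying ferroxidase of plasma. Its libraries held 258, 171, 162 and 162 CPM in Achilles and 198, 158, 146 and 159 CPM in patellar. In flexor they held 106, 111, 117 and 121 CPM, and in supraspinatus 108, 112, 114 and 125 CPM. The limbs were fully separated again, with the forelimb libraries within a narrow range. Achilles was above flexor (log2 fold change 0.73 ± 0.14, adjusted p = 0.000761) and above supraspinatus (0.71 ± 0.14, adjusted p = 0.000754). Patellar was above supraspinatus (0.52 ± 0.14, adjusted p = 0.00567) and flexor below patellar (-0.54 ± 0.14, adjusted p = 0.0055). Forelimb over hindlimb was -0.63 ± 0.1 (adjusted p = 8.61e-05). The pairs within a limb were at 0.19 ± 0.14 (Achilles over patellar, adjusted p = 0.451) and -0.01 ± 0.14 (flexor over supraspinatus, adjusted p = 0.948). Achilles library 1 was high, and without it Achilles over flexor was 0.54 (adjusted p = 0.000787).

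Hnrnpk, an RNA-binding protein gene, Hilpda, a lipid droplet gene induced by low oxygen, and Adamts4, an aggrecan-cleaving protease, were most like Cp with r of 0.978, 0.958 and 0.953. Adamts4 averaged 22.7 CPM in Achilles and 22.3 CPM in patellar against 2.78 CPM in flexor and 3.99 CPM in supraspinatus. For Alb the list was Cks1b, a cell cycle gene, Cpa4, a carboxypeptidase, and Hoxc10, with r of 0.979, 0.978 and 0.976. Hoxc10 is a homeobox gene of the hindlimb. It averaged 11.9 CPM in Achilles and 14.9 CPM in patellar and 0.0148 and 0.0272 CPM in flexor and supraspinatus.

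C3 (ENSRNOG00000046834) is the central component of complement. Its highest levels lay in flexor. The flexor libraries held 37, 26.8, 80.6 and 50.9 CPM, the patellar libraries 15.1, 16.2, 18.8 and 8.42 CPM, the Achilles libraries 13.6, 10.3, 8.96 and 3.78 CPM, and the supraspinatus libraries 0.454, 1.57, 1.79 and 1.08 CPM. All flexor libraries lay above all others and all supraspinatus libraries below all others, and the hindlimb tendons overlapped between them. The share of all genes with this order was not counted. For patellar above supraspinatus alone it was 23.2%. Flexor over supraspinatus, both of the forelimb, was the widest gap (log2 fold change 5.32 ± 0.53, adjusted p = 3.41e-06). Flexor was also higher than patellar by 1.74 ± 0.44 (adjusted p = 0.00462) and Achilles was lower than flexor by -2.41 ± 0.45 (adjusted p = 0.000601). Patellar and Achilles exceeded supraspinatus by 3.58 ± 0.49 (adjusted p = 3.24e-05) and 2.91 ± 0.48 (adjusted p = 0.000175). Achilles over patellar was -0.67 ± 0.44 and did not pass (adjusted p = 0.381).

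Because its extremes lay in the same limb, the limb comparison of C3 averaged opposite values and gave -0.58 ± 0.31 (adjusted p = 0.124). That value passed without Achilles 4 (-0.71, adjusted p = 0.047), without flexor 3 (-0.76, adjusted p = 0.0484) and with library totals in place of TMM (-0.83, adjusted p = 0.0363). Efemp1, an extracellular matrix gene of fibulin type, was most like C3 at r = 0.972, with means of 114 CPM in Achilles, 233 CPM in flexor, 150 CPM in patellar and 53.3 CPM in supraspinatus. Clmn and Gramd4 followed at 0.95 and 0.936. Macrophage and monocyte markers (14 of 15 measured, none at 0) summed to 1510 to 2690 CPM in flexor and 932 to 1990 CPM in supraspinatus, and to 1160 to 2400 CPM in the hindlimb tendons. The r of C3 with this sum was 0.52 over the 16 libraries and 0.51 for deviations from tendon means. The part of macrophages in the C3 values was not tested.

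Cfb (ENSRNOG00000000419), factor B of the alternative pathway, was barely detected and was not tested. The Achilles libraries held 13, 4, 3 and 1 counts, the patellar libraries 2, 7, 9 and 3, the flexor libraries 0, 1, 1 and 1, and the supraspinatus libraries 0, 0, 3 and 0. Patellar held 9.23 times as many counts as flexor after scaling (95% exact interval 2.76 to 48.3) and Achilles 7.11 times as many (2.12 to 37.3), counting error only. C2, its relative in the classical pathway and its neighbour in GRCr8 gene order, averaged 117 CPM in Achilles, 143 CPM in patellar, 36.9 CPM in flexor and 27.6 CPM in supraspinatus. Whether reads are shared between these adjoining genes was not tested.

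Serping1 (ENSRNOG00000007457) encodes C1 inhibitor, which blocks C1r and C1s. Its libraries held 802, 681, 687 and 382 CPM in Achilles, 432, 470, 699 and 622 CPM in flexor, 517, 583, 630 and 511 CPM in patellar, and 386, 437, 464 and 355 CPM in supraspinatus. The ranges overlapped in each pair except that all patellar libraries lay above all supraspinatus libraries, a separation that 23.2% of all genes showed in that direction. Only Achilles over supraspinatus passed (log2 fold change 0.64 ± 0.21, adjusted p = 0.0185), and it failed without Achilles 1 (0.51, adjusted p = 0.06) or without Achilles 3 (0.57, adjusted p = 0.055). The test among the 4 tendons did not pass (adjusted p = 0.0638), but did with library totals (0.00414), with DESeq2 (0.0328) and without Achilles 4 (0.00435). Patellar over supraspinatus, at 0.45 (adjusted p = 0.075), passed with library totals (0.00408), without Achilles 4 (0.0242) and with that pair fitted alone (0.0227). Flexor over supraspinatus (adjusted p = 0.0929) passed in the same settings (0.0109, 0.0312 and 0.0392). The limb comparison (-0.32 ± 0.15, adjusted p = 0.0679) passed with library totals (0.00608), without Achilles 4 (0.00655) and without flexor 3 (0.034). In the authors' deposited table, Serping1 had an adjusted p of 0.0563 for Achilles against supraspinatus. Lamp2, Renbp and Cndp1 were most like it, at 0.938, 0.927 and 0.91.

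Between pairs of tendons, the 5 tested members gave 17 calls in 30 gene and pair combinations. Achilles against patellar, the pair within the hindlimb, gave 0 calls among them by edgeR's quasi-likelihood test, 0 at an unadjusted p under 0.05, and 0 by DESeq2 and limma-voom, and 5.16% of all genes were called there. Achilles against flexor gave 3 calls (2 higher and 1 lower in Achilles), where 47.7% of all genes were called, 23.5% higher and 24.1% lower. For flexor against patellar there were 3 (1 higher and 2 lower in flexor), where the background was 50.5%, 25.8% higher and 24.7% lower. For flexor against supraspinatus there were 2, both higher in flexor (background 47.7%, of all genes 23.4% higher). Against supraspinatus, all 5 were higher in Achilles (background 50.1%, with 25.4% higher) and 4 were higher in patellar (background 56.4%, with 28.8% higher). No call had supraspinatus as the higher tendon. Of all genes called in the pairs with supraspinatus, those outside the higher shares just given were higher in supraspinatus. The supraspinatus libraries are also those with the most muscle transcripts, and the part of muscle RNA in these values was not tested.

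**Figure D3:**
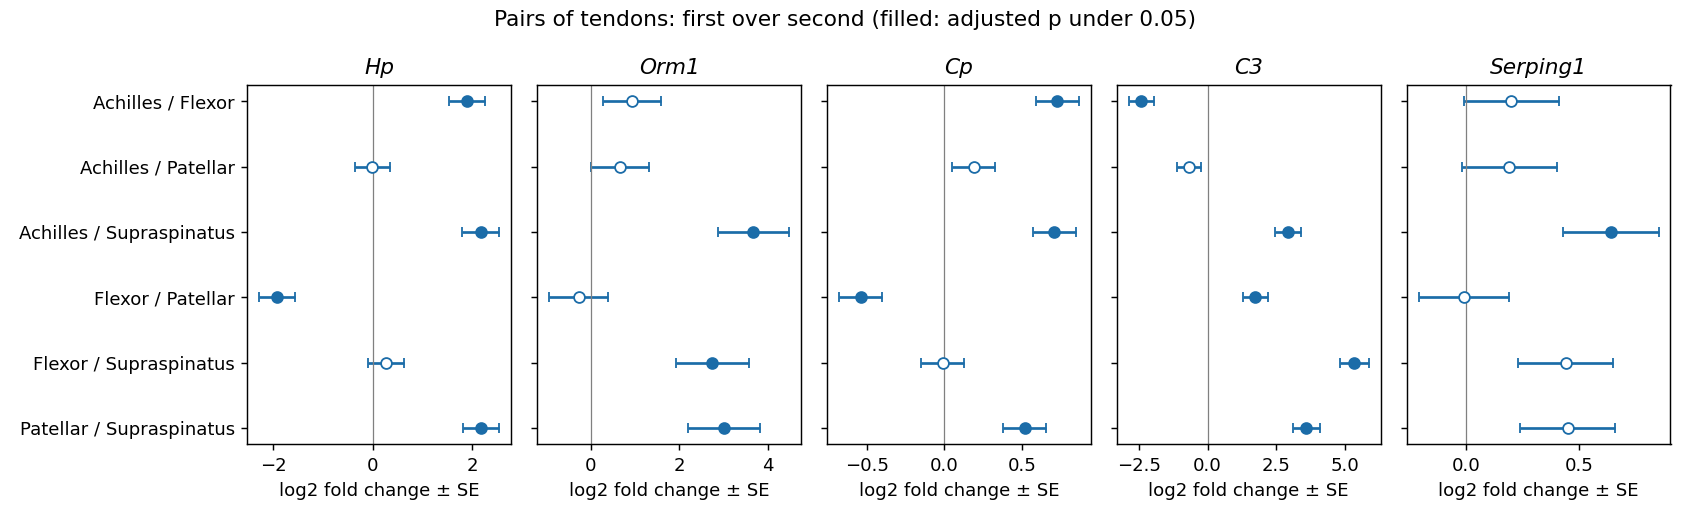
log2 fold change with its standard error for the 5 tested members in each of the 6 pairs of tendons, first tendon over second; filled points have an adjusted p under 0.05. Hp and Cp are filled in each pair that crosses the limbs and open in the pairs within a limb, while C3 is open only for Achilles over patellar.

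The other complement genes on a list of 39 were measured for 36 and tested for 33, and 26 differed among the tendons, where 75.6% of all genes did. Between the limbs 10 were higher and 14 lower in the forelimb (30.3% and 28.5% of all genes), with a median log2 difference of -0.43 against 0.02 over all genes; with library totals in place of TMM, 6 were higher and 19 lower. Cfd, factor D, the adipocyte-made protease that cleaves factor B, held 4710, 2620, 2910 and 1110 CPM in Achilles, 4640, 5390, 4870 and 1800 CPM in patellar, 185, 259, 156 and 323 CPM in flexor, and 27.3, 41.5, 69.5 and 47.2 CPM in supraspinatus. Every hindlimb library was far above every forelimb library, at a log2 difference of forelimb over hindlimb of -5.06 ± 0.35 (adjusted p = 7.14e-08). Cfd is also an adipocyte marker on the list summed above.

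Cfp, properdin, which stabilises the alternative convertase, and Fcna, a ficolin of the lectin pathway, were also higher in the hindlimb and peaked in patellar. Cfp averaged 26.4 ± 7.94 CPM there against 9 ± 4.6 CPM in Achilles, 1.97 ± 0.356 CPM in flexor and 3.71 ± 0.923 CPM in supraspinatus, and Fcna 97.7 ± 33 CPM against 33.2 ± 10.6, 9.8 ± 1.85 and 9.46 ± 3.68 CPM. Forelimb over hindlimb was -2.51 ± 0.23 for Cfp (adjusted p = 5.76e-07) and -2.56 ± 0.23 for Fcna (adjusted p = 6.19e-07). Masp1, the lectin pathway protease, went the other way, with 155, 126, 86.2 and 164 CPM in supraspinatus and 12.1, 5.89, 5.98 and 9.57 CPM in patellar. The limb difference of Masp1 was 2.94 ± 0.22 (adjusted p = 1.06e-07).

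C1r, a target of Serping1, did not pass at means of 496 to 713 CPM (adjusted p = 0.134), while C1s, the other target, chosen after its values were seen, differed among the tendons at 654 ± 22.8 CPM in flexor against 364 to 405 CPM elsewhere (adjusted p = 0.0104). Cd59, which blocks the membrane attack complex, did not pass at 289 to 373 CPM (adjusted p = 0.143). Among genes picked after their values were seen, C4b averaged 836 CPM in Achilles, 1250 CPM in patellar, 212 CPM in flexor and 75.2 CPM in supraspinatus, and C7, a part of the membrane attack complex, 166, 285, 35.5 and 13.6 CPM in the same order. C4b and C4a are near-identical copies between which reads could be split, so that the level of either is uncertain.

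**Figure D4:**
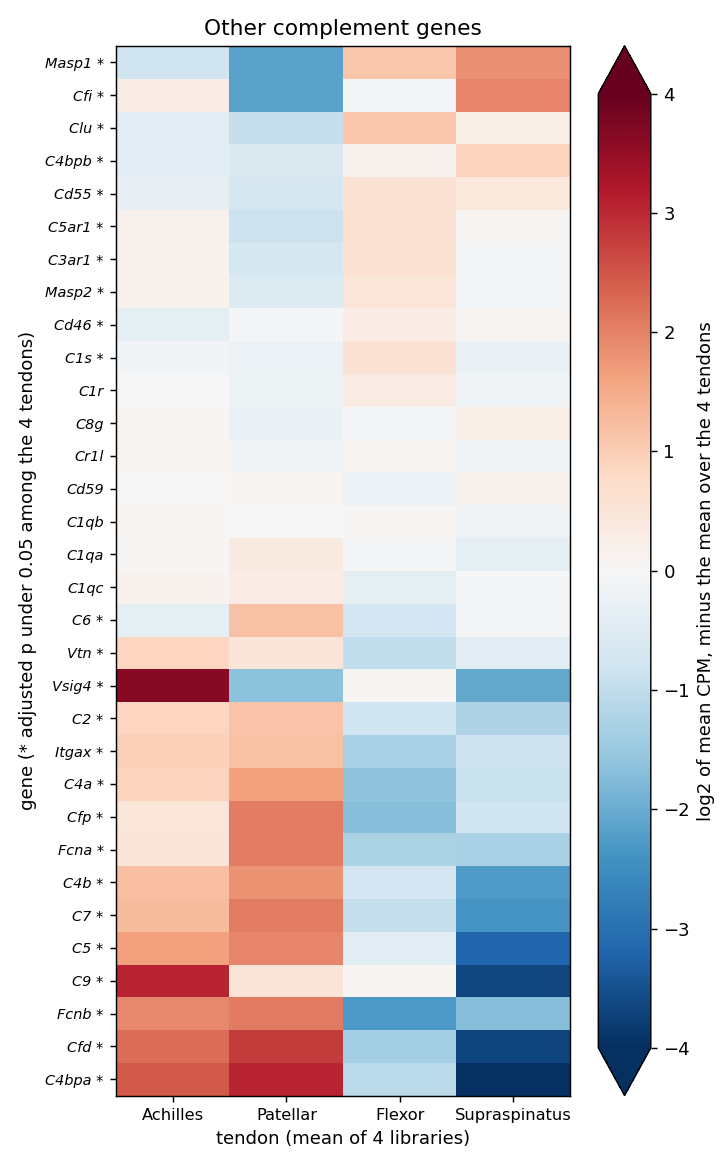
Heat map of 32 of the 33 tested genes of the complement list, with colour for the log2 of the mean CPM of a tendon minus the mean of these values over the 4 tendons (colours end at -4 and 4); an asterisk marks an adjusted p under 0.05 among the 4 tendons. Genes at the bottom, such as Cfd and C7, are high in Achilles and patellar, and others at the top, such as Masp1, are high in supraspinatus.

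Most other plasma protein genes of the liver were at low levels. Of a list of 58 genes 47 were measured, and 31 of these stayed under 1 CPM in every library. Among the 29 tested, 22 differed among the tendons (75.6% of all genes did), and 7 were higher and 15 lower in the forelimb (30.3% and 28.5% of all genes), with a median log2 difference of -0.66. The examples with the smallest p were all higher in the hindlimb. Apoe, apolipoprotein E, averaged 1970 ± 273 CPM in Achilles, 2180 ± 184 CPM in patellar, 891 ± 90.1 CPM in flexor and 382 ± 91 CPM in supraspinatus. Agt, angiotensinogen, held 226, 227, 259 and 67.5 CPM in Achilles and 310, 717, 701 and 118 CPM in patellar, against 10.8 to 23.8 CPM in the forelimb libraries. Rbp4, the plasma carrier of retinol, had a limb difference of -3.63 ± 0.26 (adjusted p = 9.72e-08) and Lrg1, a leucine-rich glycoprotein, one of -1.82 ± 0.12 (adjusted p = 6.25e-08). Saa4, at 18.4 to 22.2 CPM, and Apom, at 1.1 to 1.18 CPM, did not pass (adjusted p = 0.0918 and 0.889).

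A list of partners and receptors of the 9 genes had 24 of 26 measured and 19 tested, of which 16 differed among the tendons (75.6% of all genes did), 7 higher and 5 lower in the forelimb (30.3% and 28.5% of all genes; 6 and 6 members of the list with library totals). Besides Cfd and Cd14, the rule for examples named Cubn, cubilin, a receptor for albumin uptake. Cubn averaged 33.8 ± 8.81 CPM in flexor, 16.4 ± 3.72 CPM in supraspinatus, 9.69 ± 0.452 CPM in Achilles and 9.07 ± 1.72 CPM in patellar. It was lower where Alb was present, at a limb difference of 1.33 ± 0.14 (adjusted p = 1.65e-06).

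Of the acute phase signalling genes, 24 of 26 were measured, 23 tested and 17 differed among the tendons (75.6% of all genes did), 5 higher and 9 lower in the forelimb (30.3% and 28.5% of all genes; 4 and 12 members of the list with library totals). Cebpb encodes a C/EBP factor that switches on acute phase genes in liver. It held 40.2, 42.2, 95.1 and 130 CPM in flexor, 0.913, 0.601, 0.756 and 1.58 CPM in Achilles, 1.47, 1.11, 2.31 and 2.84 CPM in patellar and 2.28, 2, 2.18 and 2.51 CPM in supraspinatus. Only the flexor libraries were high, and Achilles over flexor was -6.32 ± 0.48 (adjusted p = 4.57e-07). Its relative Cebpd was likewise highest in flexor, at a mean of 168 CPM against 12.3 to 25.8 CPM elsewhere, and Nfkb1, a subunit of NF-kB, averaged 56 ± 8.05 CPM in flexor against 24.3 to 26.8 CPM. Irf1, an interferon response factor, was higher in both hindlimb tendons, at 59.7 ± 8.56 and 70.8 ± 1.39 CPM against 24.5 ± 4.35 and 26.6 ± 4.54 CPM in flexor and supraspinatus. Stat3 and Hif1a did not pass (adjusted p = 0.797 and 0.122). Of the members, C3 was likewise highest in flexor, and a link between these factors and C3 was not tested.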

How the data were processed

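Per the labels, total RNA was purified with a miRNeasy kit and DNase I. HISAT2, FastQC, edgeR and genome build rn6 stand in the submitters' processing notes. For the counting tool, the annotation and the strand setting, the source is silent: not given in the sources used here. The authors deposited whole-number counts per Ensembl gene for 16 libraries, not normalized. The authors also deposited edgeR results that hold, per the file headers, log2 fold changes with p-values and adjusted p-values for 12588 genes, 7 of the 9 members among them (not Orm1 and Cfb).

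From the counts, genes were filtered with filterByExpr (minimum count 10, minimum total 15), leaving 16948, and TMM factors were computed. All 16 libraries entered 1 quasi-likelihood fit in edgeR 4.0.16 on R 4.3.3, with a mean for each tendon and 12 residual degrees of freedom. The 6 pairs, forelimb against hindlimb and the joint test among tendons were adjusted by Benjamini-Hochberg over all genes tested, with a threshold of 0.05. The SE of a log2 fold change is its absolute value over the square root of the F value of its test. Ratios of low counts have exact conditional 95% intervals, which cover counting error only. The fit was also run on simulated counts with seeded differences, where small differences were recovered less often than large ones. A difference that did not pass may thus have been missed. Alternatives used DESeq2 1.42.0, limma 3.58.1 (voom), other scalings and filters, a replicate block and leaving out each library.

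The members and the 16 gene lists (262 symbols, 232 matched, some on several lists) were chosen with earlier results of these data known. Examples from a list were the up to 4 genes with the smallest joint adjusted p at 5 CPM or more in the highest tendon and up to 2 of highest mean that did not pass. For genes like a member, the 3 highest Pearson r of log2 CPM (prior count 2) were taken among genes of at least 1 CPM. Of the genes these rules named, 2 are not reported here.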

Additional observations from a re-analysis of the deposited data

Results flagged for a closer look

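In 30 groups of 4 libraries (members by tendon, leaving out groups with fewer than 10 counts in every library), the highest or lowest library was compared with the rest by Dixon's ratio of its gap to the whole range, at the 95% critical value for 4 samples. Chance gives about 1 such library in 20 groups, and 3 were found. Lbp in patellar library 1 was at 53.2 CPM, where the other patellar libraries ran from 23.5 to 26.2 CPM (ratio 0.907). Orm1 in flexor library 3 was at 0.447 CPM, against 0.161 to 0.196 CPM in the others (ratio 0.879). Cp in Achilles library 1 was at 258 CPM, against 162 to 171 CPM (ratio 0.904).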

How the results depend on the processing

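Under 25 alternatives, 16 of them leaving out 1 library each, 1441 of 1478 values for single genes kept their direction and their side of the threshold, or moved by less than 1 SD where untested. The limb comparison called 3 of the 5 tested members, 5 with library totals in place of TMM, and 3 to 6 when 1 library was left out (6 without Achilles 4, which also let Cfb pass the filter, and 5 without flexor 3). The count of members differing among the tendons was 4 (4 to 6 with a library left out), that of calls between pairs 17 (16 to 22) and that of complement genes 26 (24 to 28). For liver plasma protein genes it was 22 (20 to 23), and 10 with a filter of 1 CPM in 8 libraries. That filter tests fewer genes and gave the lowest counts of these alternatives throughout, 3 members among the tendons, 14 calls between pairs, 2 in the limb comparison and 22 complement genes.

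Among the tested members, directions that changed were all of differences that did not pass. Alb, which was given no test, changed direction in Achilles over patellar. It was at -0.07, and at -0.51 to 0.25 under the alternatives. Hp in Achilles over patellar was -0.01, 0.06 with limma-voom, and -0.26 to 0.23 with a library left out. Orm1 in flexor over patellar went from -0.77 to 0.11 and Serping1 in the same pair from -0.17 to 0.07 with a library left out. Cp in flexor over supraspinatus was -0.01, 0.33 with library totals, 0 without a filter, 0.06 with that pair of tendons fitted alone, and -0.09 to 0.09 with a library left out; the cause was not tested.

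With the replicate number as a block, the counts were 4, 17, 3, 26 and 21 in the order above (members among tendons, pairs, limb, complement, liver), no call of a member changed, and the uncalled Hp difference of Achilles over patellar was 0.01. Libraries with the same number in different tendons had correlated deviations above 0.1 in 9 of 24 cases, from -0.21 to 0.37. The highest was that of Achilles 4 with patellar 4. Their median r was 0.032, against -0.01 for libraries with different numbers. These values do not settle whether the numbers pair the libraries, which were treated as unpaired. Whether the numbers mark shared animals cannot be told from the labels. Orm1 and Cfb are limited by depth, and Alb by it in the forelimb.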
